A study of Mus musculus with 6 samples.

Results

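The 39 genes described here encode the ligands, receptors, Smads and extracellular antagonists of bone morphogenetic protein (BMP) and transforming growth factor beta (TGF-beta) signaling, together with the Id genes. They were taken by gene symbol from the 24060 genes of the deposited count table, and all 39 were found. RNA-seq was performed on retinal ganglion cells (RGCs) of C57BL/6 mice at embryonic day 18 (E18, 3 samples, replicates 1, 3 and 4) and at postnatal day 5 (P5, 3 samples, replicates 6, 8 and 9), to compare cells that grow axons readily with cells that have lost this capacity. Neither age carried a transgene or received a treatment in the labels. Retinas were dissociated with papain, macrophages were removed, and RGCs were held on dishes coated with an antibody against CD90 (Thy1), so each sample is a population selected on 1 surface protein. The labels do not say how many animals were pooled or whether samples came from separate litters, so the p-values measure only the spread between these samples. E18 replicate 1 stands under a column numbered 1, 2 and 5, and whether it pools several preparations is not given in the sources used here.

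A ligand of this family binds a pair of type II and type I receptor kinases, and the type I receptor phosphorylates receptor-regulated Smads, which join Smad4 and enter the nucleus. BMP receptors act on Smad1, Smad5 and Smad9, whereas TGF-beta and activin receptors act on Smad2 and Smad3. Smad6 and Smad7 inhibit the pathway, and the Id genes are classical BMP targets whose products block basic helix-loop-helix factors by sequestering their E protein partners. In the retina, BMPs are known for dorsoventral patterning of the optic cup, and in neurons Smad1 is known for a role in axon growth.

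The genes of each sample received 81213639 to 114512853 reads, so even a gene at 0.1 CPM (reads scaled to a library of 1e+06 reads, with TMM factors) rested on about 10 reads. The summed level of 15 RGC markers was 10625 to 12203 CPM at E18 and 10690 to 11701 CPM at P5. Single markers moved in opposite directions within this sum. Of the 15, 9 passed the test between the ages, 4 higher at E18 and 5 lower. Isl1 had the highest log2 fold change among them (1.10), and Nefh and Slc17a6 the lowest (-1.89 and -1.40). The similar sums therefore do not show that RGC content was equal at both ages. Thy1, which encodes the protein used for panning, was itself lower at E18 (log2 fold change -1.16, adjusted p in edgeR 0.00197). Markers of other cells were not evenly spread over the samples. The sum of 12 retinal progenitor genes was 318, 140 and 43.7 CPM in E18 replicates 1, 3 and 4, against 26.5 to 39.2 CPM at P5, and that of 12 dividing-cell genes was 350, 143 and 89.6 CPM against 68.7 to 87.9 CPM. Of the P5 samples, replicate 8 lay nearest to the E18 mean for 64.2% of all genes that passed the test between the ages, and for 13 of the 16 members that did.

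Of the 39 members, 36 had enough reads to be tested and 16 passed (adjusted p under 0.05 by the quasi-likelihood test in edgeR, adjusted over the 16449 genes tested), 11 higher at E18 and 5 lower. This is 44.4% of the members tested, against 43.4% of all genes tested, so as a group the members were called about as often as any gene. Over all genes, 20.8% were higher at E18 and 22.5% lower. The median log2 fold change (E18 over P5 throughout) was 0.12 over the members and 0.00 over all genes. The 2 ages did not overlap for 19 of the 36 members tested, against 56.1% of all genes tested, so this too was about as frequent as over all genes. In bulk samples, fewer cells of a type and less RNA per cell cannot be told apart. Of the 16 calls, 11 held when each of the 6 samples was left out in turn: Bmp2, Tgfbr1, Acvr2b, Smad2, Smad3, Smad4 and Id3 among those higher at E18, and Bmp5, Gdf10, Smad9 and Fstl1 among those lower. The calls of Gdf11, Tgfb3, Tgfbr2, Smad5 and Chrd were each lost in at least 1 of these fits. Without E18 replicate 3, 7 members were higher at E18 and 4 lower.

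**Figure D1:**
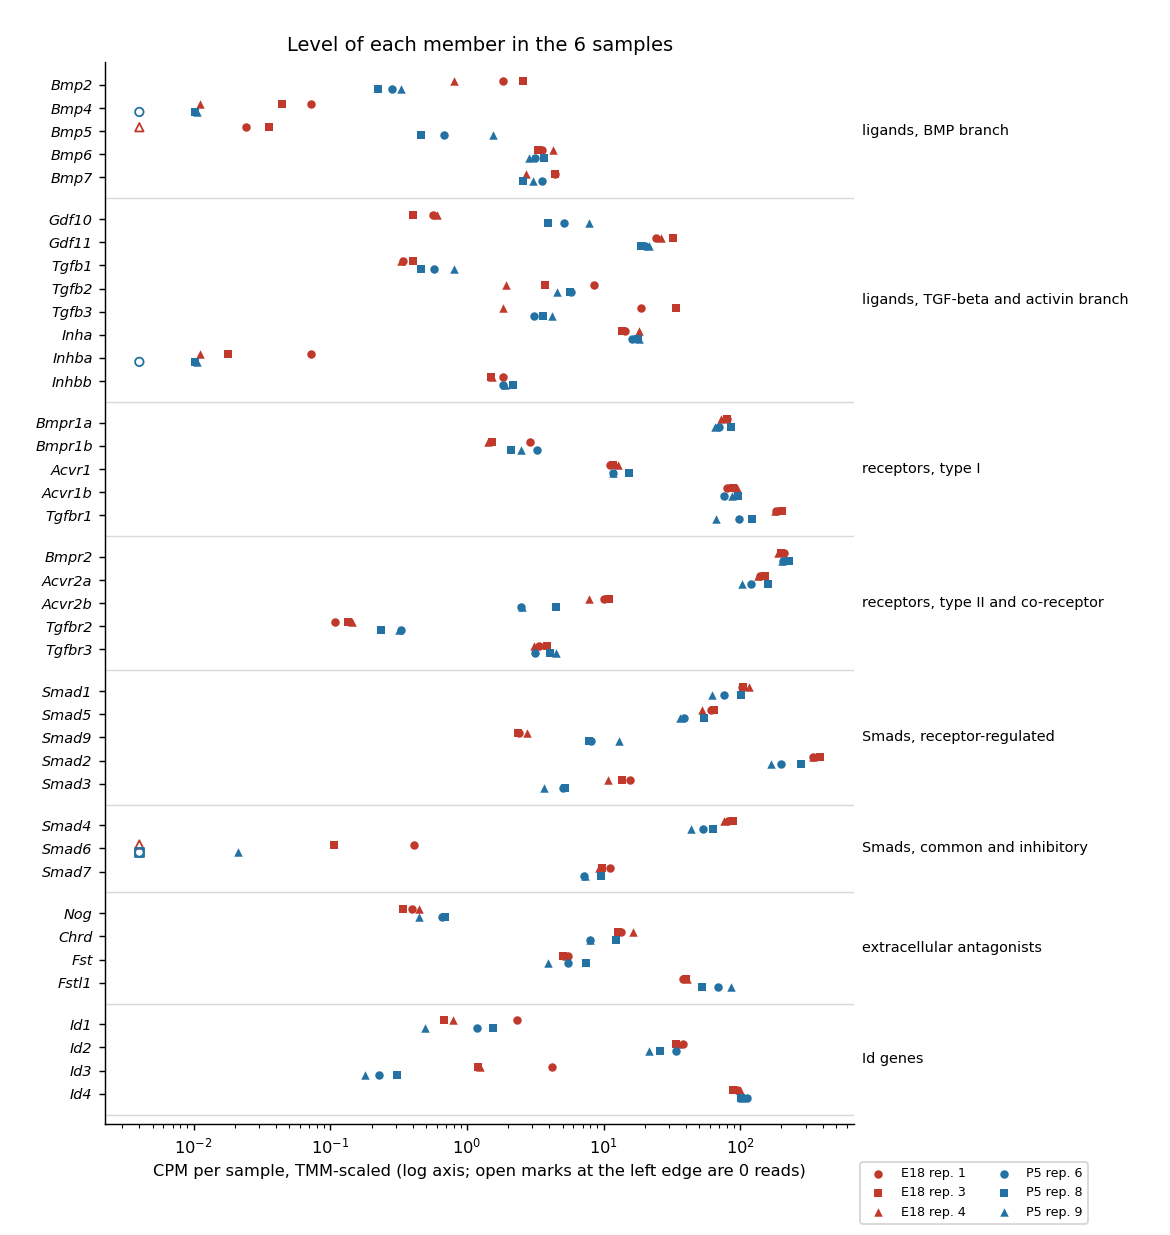
Level of each of the 39 members in CPM (log axis) in the 3 E18 samples (red) and the 3 P5 samples (blue), grouped by role. Levels in CPM are not divided by gene length; Bmp4, Inhba and Smad6 lie at the left with open marks for samples with 0 reads, and Tgfb3 and Id3 are spread widely among the E18 samples.

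Divided by transcript length (RPKM, the CPM per kilobase of transcript), Smads, receptors, Id2 and Id4 held the first places, and Inha, at 11.1 RPKM over all samples, was the highest ligand gene. At E18 the order began with Smad2 at 43.8 ± 3.13 RPKM (SD, n = 3), Smad1 at 34.8 ± 2.30 and Tgfbr1 at 32.6 ± 1.86, followed by Id2 at 28.0 ± 1.84, Acvr2a at 25.0 ± 1.44, Id4 at 24.4 ± 1.51 and Smad4 at 24.2 ± 1.78. Smad1 and Tgfbr1 did not differ beyond their spread, nor did Acvr2a, Id4 and Smad4. At P5 the first places were held by Id4 at 27.4 ± 1.5 RPKM, Smad2 at 26.6 ± 7.02 and Smad1 at 25.7 ± 6.37, which did not differ beyond their spread. Over all samples, 12 members had a mean of at least 10 RPKM, and 16 had a mean under 1 RPKM, among them every BMP ligand.

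BMP ligands were present at low levels, and the 2 that passed the test moved in opposite directions. Bmp2 (ENSMUSG00000027358.6, chromosome 2 of mm10, 133552159 to 133562885, plus strand), a BMP that signals through Bmpr1a, had 1.83, 2.56 and 0.806 CPM in E18 replicates 1, 3 and 4 and 0.282, 0.223 and 0.330 CPM in P5 replicates 6, 8 and 9. Every E18 sample was above every P5 sample, and the E18 samples differed 3.17-fold among themselves. Its log2 fold change was 2.64 ± 0.435 (SE), with an adjusted p in edgeR of 0.00210. Bmp5 (ENSMUSG00000032179.7, chromosome 9, 75775364 to 75900310, plus strand), of the subgroup of Bmp6 and Bmp7, was counted with 2, 4 and 0 reads at E18 and with 60, 45 and 146 reads at P5. The E18 level of Bmp5 thus rested on 6 reads in all, against 251 at P5, and its log2 fold change was -5.34 ± 0.755 (SE), with an adjusted p in edgeR of 0.00110.

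Bmp6 and Bmp7 did not pass, and over all samples their mean levels in CPM were nearly equal. Bmp6 had 3.51, 3.32 and 4.26 CPM at E18 and 3.15, 3.67 and 2.84 CPM at P5. The ages overlapped, and the 95% interval of its log2 fold change was -0.24 to 0.64 (intervals are not adjusted for the number of genes). Bmp7 had 4.42, 4.39 and 2.72 CPM at E18 and 3.53, 2.57 and 3.06 CPM at P5, also with overlap (log2 fold change 0.33, interval -0.22 to 0.88). Bmp4, the dorsal ligand of the optic cup, had 6, 5 and 1 reads at E18 and 0, 1 and 1 reads at P5, which was too few to test.

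Among the other ligands, the largest difference was that of Gdf10 (ENSMUSG00000021943.7, chromosome 14, 33923587 to 33937983, plus strand), also known as Bmp3b, a divergent member of the family. It had 0.567, 0.401 and 0.607 CPM at E18 and 5.17, 3.88 and 7.80 CPM at P5. The ages were far apart, with the lowest P5 sample above every E18 sample, and Gdf10 was 10.7-fold higher at P5 (log2 fold change -3.42 ± 0.319, SE; adjusted p in edgeR 0.000242). Gdf11, an activin-type ligand known as a negative regulator of RGC number in the embryonic retina, had 24.3, 32.0 and 26.1 CPM at E18 and 20.2, 18.7 and 21.6 CPM at P5. The difference was small but without overlap (log2 fold change 0.45 ± 0.130, SE; adjusted p in edgeR 0.0230), and it no longer passed without E18 replicate 3 (0.33, adjusted p 0.101) or without P5 replicate 6 (0.43, adjusted p 0.0684).

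Tgfb3, a TGF-beta ligand, had 18.7, 33.8 and 1.82 CPM in E18 replicates 1, 3 and 4 and 3.09, 3.61 and 4.21 CPM at P5. Its mean was higher at E18 through replicates 1 and 3, whereas replicate 4 lay below every P5 sample. The log2 fold change was 2.32 ± 0.768 (SE), with an adjusted p in edgeR of 0.0380. Tgfb3 passed in 1 of the 6 fits that left out a sample, and without E18 replicate 3 the log2 fold change was 1.5 (adjusted p 0.147). Genes of other retinal cells had the same order among the E18 samples. Tfap2b, a marker of amacrine cells, had 47.5, 119 and 1.62 CPM, Gad1, an enzyme of GABA synthesis, had 19.2, 35.1 and 0.486 CPM, and Sox2, a progenitor and amacrine gene, had 45.7, 69.3 and 0.950 CPM. The other markers of the amacrine list did not all share this order, and the summed level of its 10 genes was 400 to 590 CPM at E18 and 718 to 845 CPM at P5. Among the E18 samples, Bmp2 also had the order of Tgfb3 (1.83, 2.56 and 0.806 CPM), although its replicate 4 stayed above every P5 sample. The part of such cells in the levels of Tgfb3 and Bmp2 was not tested.

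Inha, the inhibin alpha subunit, was the most abundant ligand gene of this branch that did not pass, with 14.3, 13.5 and 18.2 CPM at E18 and 16.2, 17.8 and 18.2 CPM at P5. The ages overlapped (interval of the log2 fold change -0.50 to 0.13). Its partners in inhibins and activins were scarce. Inhbb had a mean of 1.61 ± 0.182 CPM at E18 and 1.96 ± 0.168 CPM at P5 (SD, n = 3 each; interval -0.76 to 0.19), and Inhba had 1 to 6 reads at E18 and 0 to 1 at P5. Tgfb2 had 8.46, 3.72 and 1.94 CPM at E18 and 5.78, 5.70 and 4.58 CPM at P5, a log2 fold change of -0.19 with a wide interval (-1.19 to 0.82). Without E18 replicate 1, the sample in which Tgfb2 was highest, the log2 fold change was -0.91 (adjusted p 0.0493). Tgfb1 stood at 0.331 to 0.401 CPM at E18 and 0.457 to 0.797 CPM at P5 and did not pass (log2 fold change -0.77, adjusted p in edgeR 0.0747), although the ages did not overlap. Microglia are a known source of Tgfb1 in the retina. Their 12 markers summed to 2.48 to 3.44 CPM at E18 and 1.85 to 2.75 CPM at P5, with Aif1 at 0.575 CPM or more, P2ry12 at 0.338 to 0.580 CPM and Csf1r at 0.259 to 0.468 CPM in the range of Tgfb1 itself, and Tmem119 and Tyrobp at no more than 0.0121 and 0.0331 CPM. The part of microglia in the level of Tgfb1 was not tested.

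**Figure D2:**
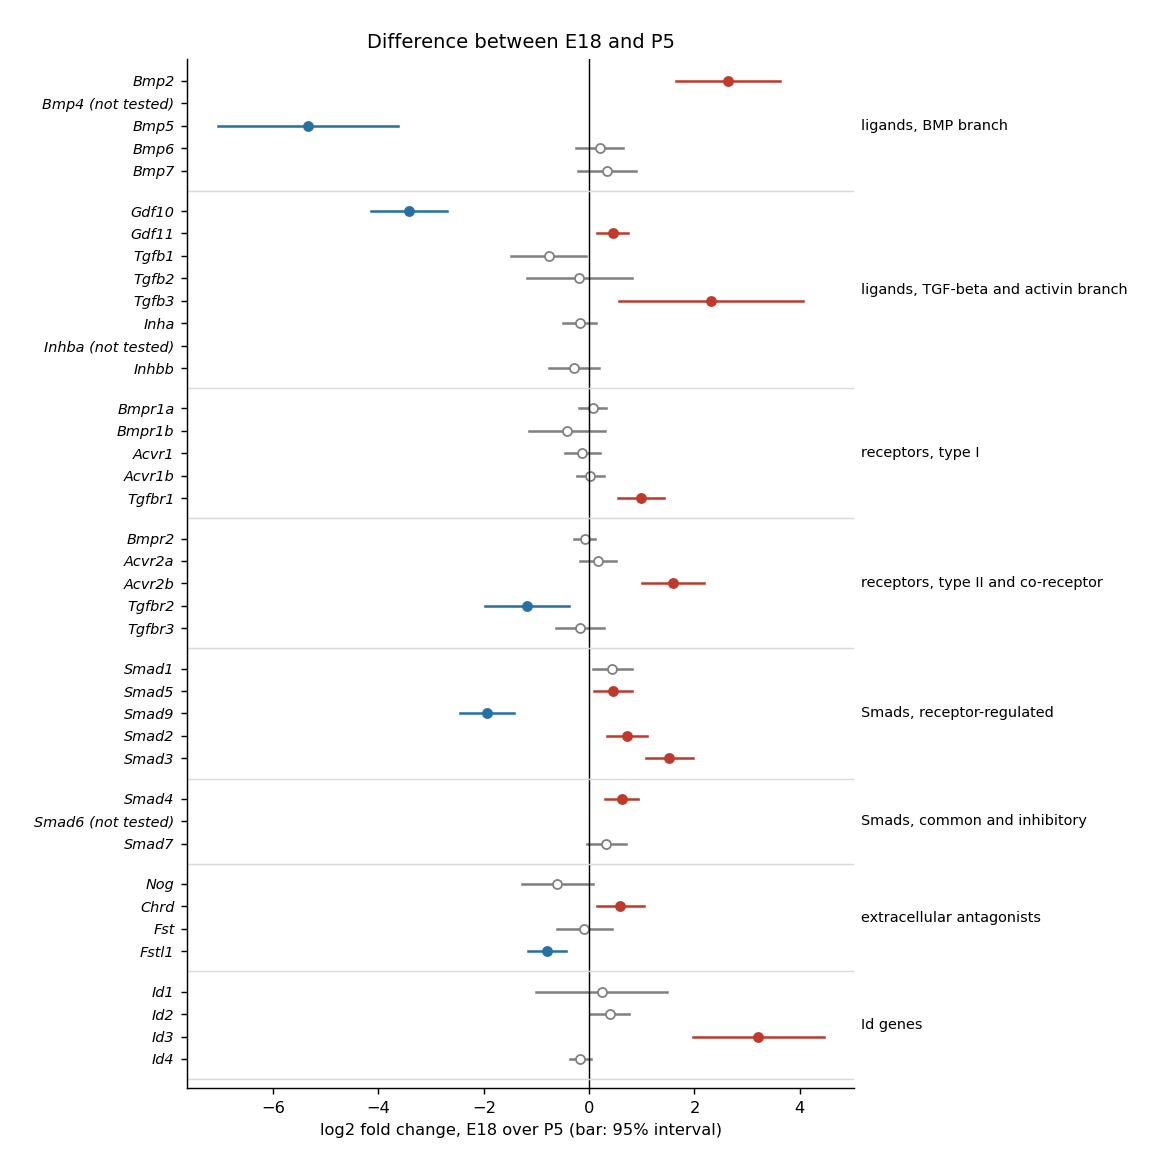
Log2 fold change (E18 over P5) with its 95% interval for the 36 members tested, grouped by role. Filled red points passed the test as higher at E18 (11 genes), filled blue points as lower (5 genes), and open grey points did not pass; the widest intervals among called genes are those of Bmp5, Tgfb3 and Id3.

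Of the 4 extracellular antagonists among the members, 1 was higher at E18 and 1 lower. Fstl1, a secreted follistatin-like glycoprotein that can bind BMP4, was the most abundant of them (ENSMUSG00000022816.11, chromosome 16, 37776873 to 37836514, plus strand). It had 37.9, 39.9 and 40.5 CPM at E18 and 68.1, 52.3 and 85.6 CPM at P5. The E18 samples lay close together and below every P5 sample (log2 fold change -0.80 ± 0.162, SE; adjusted p in edgeR 0.00507). Chrd, the gene of chordin, which binds BMPs outside the cell, had 13.4, 12.7 and 16.4 CPM at E18 and 7.90, 12.4 and 7.92 CPM at P5. The highest P5 sample, replicate 8, almost reached the lowest E18 sample. Its log2 fold change was 0.59 ± 0.199 (SE), with an adjusted p in edgeR of 0.0399, and Chrd passed in 1 of the 6 fits that left out a sample, with adjusted p values of 0.00271 to 0.136 over all 6. Exons of Thpo lie on the other strand within Chrd, and since no strand setting is given for the counting, the reads of that stretch cannot be assigned with certainty.

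Fst, the gene of follistatin, which traps activins, had 5.52, 5.04 and 5.26 CPM at E18 and 5.49, 7.46 and 3.94 CPM at P5. The P5 samples enclosed those of E18, and the interval of its log2 fold change was -0.62 to 0.43. Nog, the gene of the BMP antagonist noggin, was barely expressed, at 0.393 ± 0.0516 CPM at E18 and 0.597 ± 0.132 CPM at P5 (SD, n = 3 each), and did not pass (log2 fold change -0.61, adjusted p in edgeR 0.131).

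Of the 5 type I receptors, 1 passed the test. Tgfbr1 (ENSMUSG00000007613.15, chromosome 4, 47353222 to 47414931, plus strand), the TGF-beta type I receptor also known as ALK5, had 183, 200 and 180 CPM at E18 and 97.2, 122 and 66.5 CPM at P5. No P5 sample came near the E18 samples, and Tgfbr1 was 1.98-fold higher at E18 (log2 fold change 0.98 ± 0.190, SE; adjusted p in edgeR 0.00416). Acvr1b, the activin type I receptor that uses the same Smads, was the most abundant that did not pass, with 79.8, 87.9 and 95.1 CPM at E18 and 76.2, 96.1 and 86.8 CPM at P5. Its interval of -0.24 to 0.28 leaves room for only a small difference. For Bmpr1a, the main BMP type I receptor here, the interval was equally narrow, -0.20 to 0.33, around means of 76.8 ± 4.32 CPM at E18 and 73.4 ± 10.4 CPM at P5 (SD, n = 3 each). Acvr1 had an interval of -0.46 to 0.20, and Bmpr1b, at 1.94 ± 0.803 and 2.60 ± 0.594 CPM, had a wider one of -1.13 to 0.29. Expressed per length and within each sample, Tgfbr1 made up 46.9% ± 1.54 of the summed RPKM of the 5 type I receptors at E18 but 30.7% ± 5.05 at P5 (mean ± SD of 3 samples per age), while the share of Acvr1b was 28.5% ± 2.27 and 37.1% ± 4.57.

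Among type II receptors and the co-receptor Tgfbr3, the activin receptor Acvr2b (ENSMUSG00000061393.14, chromosome 9, 119402118 to 119434995, plus strand) was higher at E18. It had 10.1, 10.9 and 7.78 CPM at E18 and 2.48, 4.47 and 2.53 CPM at P5. The ages were separate, with a 3.03-fold difference (log2 fold change 1.6 ± 0.260, SE; adjusted p in edgeR 0.00197). Its close relative Acvr2a, which binds the same ligands, was far more abundant and had 139, 151 and 136 CPM at E18 and 119, 158 and 102 CPM at P5. The Acvr2a values overlapped because P5 replicate 8 was the highest of all (log2 fold change 0.17, interval -0.17 to 0.51), and without that sample Acvr2a passed (adjusted p 0.0191). Bmpr2, the BMP type II receptor, had the highest CPM of the receptors and did not pass, with 208, 200 and 190 CPM at E18 and 206, 226 and 201 CPM at P5 (interval -0.28 to 0.11).

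Tgfbr2, the type II receptor through which TGF-beta ligands engage Tgfbr1, was scarcely detected. It was counted with 9, 15 and 13 reads at E18 and 29, 23 and 30 reads at P5, at most 0.327 CPM. The P5 samples were higher (log2 fold change -1.17 ± 0.351, SE; adjusted p in edgeR 0.0257), but Tgfbr2 passed in only 1 of the 6 fits that left out a sample, and not in DESeq2. In RPKM the mean of Tgfbr2 was 0.0370 ± 0.00521 at E18 against 0.0843 ± 0.0149 at P5 (SD, n = 3 each), compared with 32.6 ± 1.86 and 16.5 ± 4.81 for Tgfbr1. Tgfbr3, or betaglycan, which presents TGF-beta to the receptors, did not pass, at 3.43 ± 0.378 and 3.88 ± 0.660 CPM (interval -0.63 to 0.28).

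The receptor-regulated Smads had 4 of 5 genes called, against 43.4% of all genes tested, with 3 higher at E18, of which Smad5 did not hold in every fit that left out a sample, and Smad9 lower. Smad2, the most abundant member in CPM and in RPKM at E18, had 338, 383 and 340 CPM at E18 and 200, 278 and 167 CPM at P5. Every E18 sample was above every P5 sample, and Smad2 was 1.65-fold higher at E18 (log2 fold change 0.72 ± 0.170, SE; adjusted p in edgeR 0.00985). Smad3 (ENSMUSG00000032402.12, chromosome 9, 63646767 to 63757994, minus strand), the other Smad of the TGF-beta branch, was much scarcer and differed more, with 15.5, 13.5 and 10.8 CPM at E18 and 5.0, 5.17 and 3.66 CPM at P5. Its lowest E18 sample was above its highest P5 sample (log2 fold change 1.52 ± 0.193, SE; adjusted p in edgeR 0.000734).

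In the BMP branch, Smad1 and Smad5 stood slightly higher at E18, on either side of the threshold. Smad1 had 104, 104 and 116 CPM at E18 and 75.3, 101 and 62.2 CPM at P5. The ages were separate only by the small gap between P5 replicate 8 and the E18 samples (log2 fold change 0.44 ± 0.163, SE; adjusted p in edgeR 0.0557), and Smad1 passed without that replicate (0.63, adjusted p 0.00244) and in 4 of the 6 other alternatives. Smad5 had 60.8, 64.0 and 52.8 CPM at E18 and 38.7, 54.3 and 36.3 CPM at P5. Here P5 replicate 8 reached into the E18 range, and the call (log2 fold change 0.46 ± 0.158, SE; adjusted p in edgeR 0.0436) held in 2 of the 6 fits that left out a sample.

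Smad9 (ENSMUSG00000027796.2, chromosome 3, 54755582 to 54801257, plus strand), also called Smad8, moved the other way. It had 2.39, 2.35 and 2.76 CPM at E18 and 8.10, 7.85 and 12.9 CPM at P5. The E18 samples were nearly equal and the P5 samples all lay above them, 3.85-fold on the fitted scale (log2 fold change -1.95 ± 0.227, SE; adjusted p in edgeR 0.00052). Within each sample, Smad9 made up 1.03%, 1.00% and 1.12% of the summed RPKM of Smad1, Smad5 and Smad9 at E18, and 4.76%, 3.46% and 8.61% at P5. Smad1 held most of this sum at both ages, 78.6% ± 2.51 and 75.1% ± 3.00 (SD, n = 3 each). The summed RPKM of Smad2 and Smad3 divided by that of Smad1, Smad5 and Smad9 was 1.04, 1.14 and 0.961 at E18 and 0.809, 0.836 and 0.764 at P5, without overlap.

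The upstream 250 bases of Smad9 and Smad3 are printed because these receptor-regulated Smads differed most between the ages, in opposite directions. Both are RefSeq promoter windows on GRCm38.p6 (the assembly of mm10), at chr3:54755332-54755581 (plus strand) and chr9:63757995-63758244 (minus strand), read 5′ to 3′ on the strand of the gene. They end at the base before the gene start given above and hold no annotated exon. Capitals mark the letters GTCT or AGAC, the core of the Smad binding element on either strand, and GGCGCC, the GC-rich motif of BMP-type Smads.
Smad9: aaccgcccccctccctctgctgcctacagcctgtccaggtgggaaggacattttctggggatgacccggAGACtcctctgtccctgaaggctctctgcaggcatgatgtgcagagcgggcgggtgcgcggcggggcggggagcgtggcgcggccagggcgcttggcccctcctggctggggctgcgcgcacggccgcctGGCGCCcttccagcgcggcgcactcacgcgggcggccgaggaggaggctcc
Smad3: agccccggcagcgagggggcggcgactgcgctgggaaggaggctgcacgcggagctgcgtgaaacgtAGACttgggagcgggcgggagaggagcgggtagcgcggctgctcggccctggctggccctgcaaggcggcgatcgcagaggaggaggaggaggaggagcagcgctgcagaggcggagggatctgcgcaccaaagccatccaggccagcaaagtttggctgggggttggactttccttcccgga

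In these windows GTCT occurred once for each gene, and GGCGCC occurred once for Smad9, beginning 51 bases before the start, and not for Smad3. Of all 32851 promoter windows of this length, 82.9% hold GTCT on either strand and 9.59% hold GGCGCC. The palindrome GTCTAGAC, which contains GTCT on both strands, was in neither window and is in 0.167% of all windows. The 29 members with at least 1 promoter window had 34 windows, some of which overlap. GTCT was in 28 of the 34, and CANNTG, the letters of the E-box, in 12, against 66.2% of all windows. GGCGCC was in 8 of the 34, those of Bmpr1a, Bmpr2, Tgfbr1, Smad5, Smad9, Chrd, Id2 and Id4. These counts were not tested against the shares of all windows. A match of letters does not show that a Smad binds there.

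**Figure D3:**
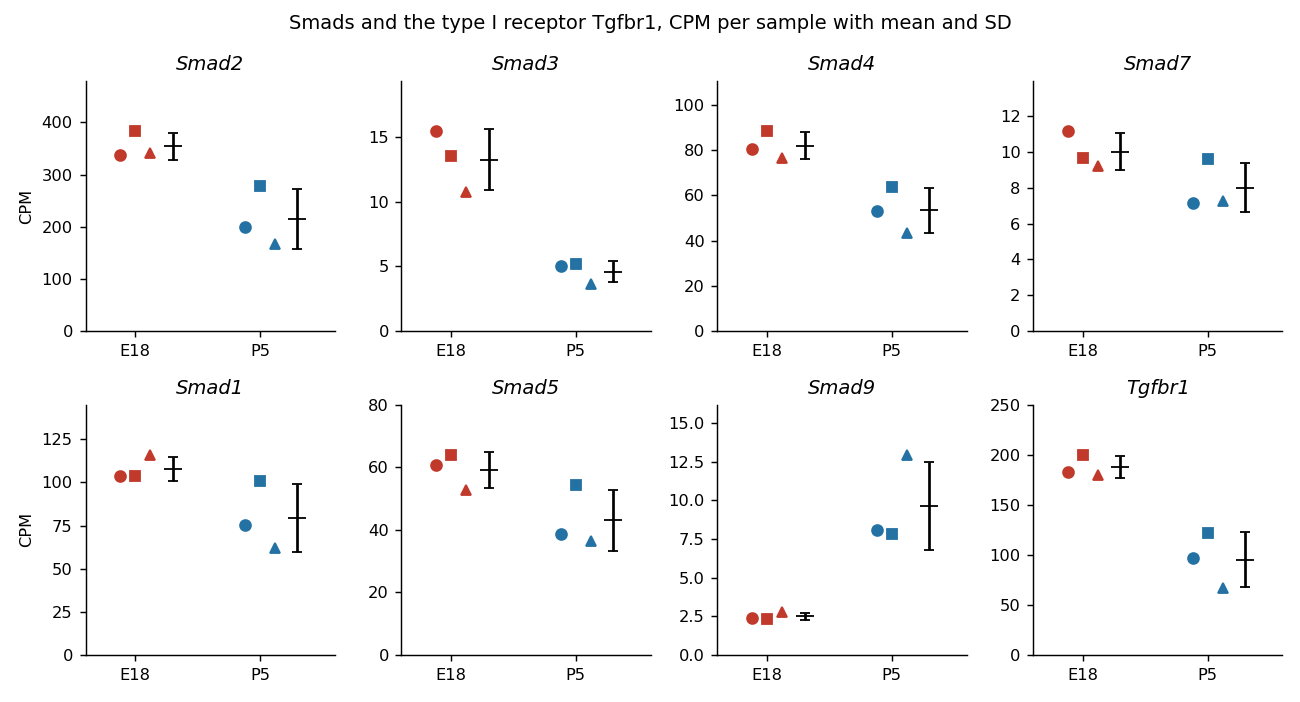
CPM of 7 Smads and of Tgfbr1 in each sample (circle, square and triangle are E18 replicates 1, 3 and 4 in red and P5 replicates 6, 8 and 9 in blue), with the mean and SD in black (n = 3 per age) and every axis starting at 0. Smad2, Smad3, Smad4 and Tgfbr1 were higher in every E18 sample, Smad9 was higher in every P5 sample, and P5 replicate 8 (blue square) lay closest to the E18 mean for all 8 genes.

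Smad4, the common partner of both branches, had 80.6, 88.3 and 76.5 CPM at E18 and 53.1, 63.5 and 43.5 CPM at P5. The ages did not overlap (log2 fold change 0.62 ± 0.139, SE; adjusted p in edgeR 0.00814). Smad7, the inhibitory Smad that is itself a target of the pathway, had 11.2, 9.67 and 9.20 CPM at E18 and 7.16, 9.59 and 7.26 CPM at P5. P5 replicate 8 overlapped with E18 (log2 fold change 0.32, interval -0.05 to 0.69, adjusted p in edgeR 0.139), and without it Smad7 passed (adjusted p 0.0276). Smad6, the inhibitory Smad of the BMP branch, was counted with 34, 12 and 0 reads at E18 and 0, 0 and 2 reads at P5, too few for the filter. With no filter it was called higher at E18 (log2 fold change 4.34 ± 1.4, SE; adjusted p in edgeR 0.0305), although E18 replicate 4 had no read.

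The Id genes were dominated by Id2 and Id4, and only the scarce Id3 passed the test. Id3 (ENSMUSG00000007872.3, chromosome 4, 136143497 to 136145755, plus strand) had 4.20, 1.21 and 1.24 CPM in E18 replicates 1, 3 and 4 and 0.226, 0.305 and 0.181 CPM at P5. Every E18 sample was above every P5 sample, with replicate 1 standing 3.46-fold above the lowest E18 sample. The log2 fold change was 3.21 ± 0.548 (SE), with an adjusted p in edgeR of 0.00242. Without E18 replicate 1 it was 2.37 and still passed (adjusted p 0.00248). The same replicate had the highest level of the proliferation gene Mki67, at 68.7 CPM against 16.2 and 2.84 in replicates 3 and 4, and the highest sum of progenitor genes. Id3 stood at 1.21 and 1.24 CPM in E18 replicates 3 and 4, and the summed progenitor genes at 140 and 43.7 CPM. Sox2, which is also an amacrine gene, gave 69.3 and 0.950 CPM of these sums. The part of progenitor cells in the level of Id3 was not tested.

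Id1, the Id gene most used as a readout of BMP signaling, had 2.34, 0.678 and 0.795 CPM at E18 and 1.17, 1.54 and 0.489 CPM at P5. The ages overlapped in part, with E18 replicate 1 above and P5 replicate 9 below all samples of the other age, and the interval of its log2 fold change was wide (-1.0 to 1.48). Its sign changed without E18 replicate 1, to -0.53, and without P5 replicate 9, to -0.11, and it did not pass in any of these fits. Id4, the most abundant Id gene in CPM, had 94.0, 87.9 and 99.6 CPM at E18 and 112, 102 and 102 CPM at P5. The P5 samples all lay slightly above those of E18, and Id4 did not pass (log2 fold change -0.17, interval -0.37 to 0.04, adjusted p in edgeR 0.163). Id2 had 38.2, 33.7 and 34.9 CPM at E18 and 34.1, 25.6 and 21.5 CPM at P5, and did not pass (log2 fold change 0.39, adjusted p in edgeR 0.0792), although it passed without P5 replicate 6 (adjusted p 0.0159). Of the summed RPKM of the 4 Id genes, Id2 and Id4 made up 50.5% ± 1.22 and 44.1% ± 3.25 at E18, and 42.2% ± 4.26 and 55.1% ± 4.74 at P5 (SD, n = 3 each).

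**Figure D4:**
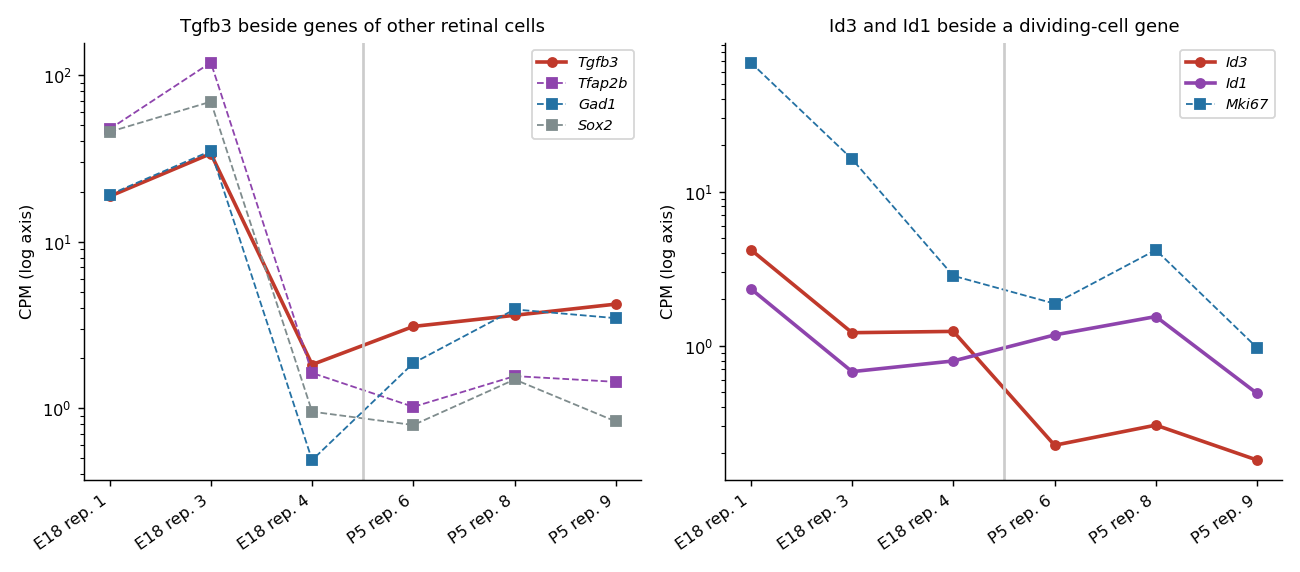
CPM (log axis) of Tgfb3 (left) and of Id3 and Id1 (right) in each sample, solid lines, beside genes of other retinal cells or of dividing cells, dashed lines; lines only link the values of 1 gene. Tgfb3, Tfap2b, Gad1 and Sox2 were all high in E18 replicates 1 and 3 and low in replicate 4, whereas Id3 was above every P5 sample in all 3 E18 samples.

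The members were set beside other genes of the pathway, in lists that overlap in 5 genes. Of 20 other ligand genes, 9 could be tested, with 1 higher at E18 and 2 lower. Mstn, the gene of myostatin, an activin-type ligand named after its values were seen, exceeded every member ligand in CPM, with 304, 371 and 381 CPM at E18 and 253, 345 and 203 CPM at P5, and did not pass (log2 fold change 0.40, adjusted p in edgeR 0.105). Gdf6, a BMP-type ligand of the dorsal eye, was lower at E18, with 3.10, 1.37 and 1.77 CPM against 9.57, 6.88 and 13.5 CPM (log2 fold change -2.27 ± 0.348, SE; adjusted p in edgeR 0.00154), as was the Nodal antagonist Lefty2, at under 1 CPM in every sample (-2.08). Nodal was higher at E18 (1.29), also at under 1 CPM, and did not pass in any of the 6 fits that left out a sample. The call of Gdf6 held in all 6.

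Of the other extracellular modulators, 18 of the 21 tested were called (85.7%, against 43.4% of all genes), with 6 higher at E18 and 12 lower and a median log2 fold change of -0.50. Not all of these calls held when a sample was left out. Lrrc32 and Ltbp3 were called in 1 of the 6 such fits, Chrdl1 and Dand5 in 2, Tll1 in 3 and Ltbp4 in 5. Kcp and Bmper, cysteine-rich proteins that bind BMPs, were higher at E18 by 1.44 and 1.38 on the log2 scale, and so was Ltbp1, which binds latent TGF-beta (1.04, called in 4 of the 6 fits that left out a sample). Bmper had 45.1, 52.6 and 69.4 CPM at E18 and 21.1, 25.5 and 17.6 CPM at P5. No sample of one age reached the other. The furthest below zero were the tolloid-like protease Tll2 (-3.87), the BMP and Wnt antagonist Sostdc1 (-2.87) and Vwc2, or brorin, a secreted BMP antagonist (-2.15). Tll2 and Sostdc1 rested on few reads. Tll2 was counted with 1, 1 and 4 reads at E18 and 44, 14 and 33 reads at P5. Sostdc1 was counted with 16, 14 and 10 reads at E18 and 159, 53 and 76 reads at P5. Vwc2 had 1.99, 1.62 and 2.0 CPM at E18 and 8.02, 6.85 and 10.1 CPM at P5.

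Of 8 other receptors and co-receptors tested, 2 were higher at E18, the decoy receptor Bambi (log2 fold change 0.77) and the BMP co-receptor Rgmb (0.35), and 2 were lower, Hfe2 (-1.31), a BMP co-receptor, and Neo1 (-0.45), the neogenin receptor. Among 20 intracellular regulators, 6 were higher and 3 lower, a share of 45.0%. The higher ones were led by the Smad corepressors Tgif1 (2.75) and Tgif2 (1.12) and the coactivator Ep300 (0.74), and the lower ones were Zfyve9 (-0.52), also known as SARA, Zfyve16 (-0.44) and the deubiquitinase Usp15 (-0.37). Tgif1 had 1.93, 0.419 and 0.144 CPM in E18 replicates 1, 3 and 4 and 0.180, 0.142 and 0.0425 CPM at P5, so that E18 replicate 4 lay within the P5 range. Without E18 replicate 1, the sample with the most progenitor transcripts, its log2 fold change was 1.23 (adjusted p in edgeR 0.185), and Tgif1 passed in 2 of the 6 fits that left out a sample. The calls of Rgmb, Hfe2, Neo1 and Usp15 each held in 3 of these 6 fits, and those of Tgif2 and Zfyve16 in 5. The ubiquitin ligases Smurf1 and Smurf2, which degrade Smads and receptors, did not pass (0.17 and 0.13).

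Of 20 genes known as Smad targets outside the members, 14 were tested, with 7 higher at E18 and 2 lower. This is 64.3% called, against 43.4% of all genes tested and 20.8% higher at E18. The 3 with the highest fold changes were Fn1, the gene of fibronectin (3.15), the basic helix-loop-helix gene Atoh8 (2.89, called in 3 of the 6 fits that left out a sample) and Tgif1 (2.75), whose limits are given above. Fn1 had 11.2, 6.87 and 2.51 CPM at E18 and 0.936, 0.843 and 0.542 CPM at P5. Of the 7 genes higher at E18, 5 were highest in E18 replicate 1, and 3 of the list were called higher without that sample. Leaving out other samples also lowered this count, to 2 without P5 replicate 6, 4 without P5 replicate 8 and 3 without P5 replicate 9. Among the lower targets was Cdkn1a (-1.15), the gene of the cell cycle inhibitor p21, which had 14.6, 15.7 and 17.3 CPM at E18 and 35.3, 33.3 and 37.0 CPM at P5. Of the E proteins that Id proteins bind, Tcf3 was higher at E18 (0.63) and Tcf4 lower (-0.67, called in 3 of the 6 such fits), and Tcf12 did not pass (0.46, adjusted p in edgeR 0.0939).

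Endothelial cells and pericytes express many genes of this pathway. The sum of 10 of their markers was 72.5, 64.5 and 16.4 CPM in E18 replicates 1, 3 and 4 and 14.6 to 17.7 CPM at P5. Nearly all of the sum at E18 came from Kdr, which had 69.5, 62.9 and 14.1 CPM. Kdr passed as higher at E18 (log2 fold change 2.68, adjusted p in edgeR 0.00545). Pecam1, Tek and Rgs5 passed as lower, with log2 fold changes of -1.81, -1.80 and -4.36 and at most 2.67, 3.64 and 3.08 CPM. Flt1, Cldn5 and Pdgfrb did not pass (-0.21, 0.52 and 1.05). Cdh5, Tie1 and Kcnj8 had at most 0.0609, 0.0425 and 0.0790 CPM in any sample. Glial markers summed to 407 to 453 CPM at E18 and 276 to 329 CPM at P5, mostly from Glul, and Gfap had at most 0.117 CPM. Fibroblast markers summed to 8.03 to 10.2 CPM in all samples, mostly from Fbln1 (4.49 to 5.74 CPM), Pdgfra (1.94 to 3.22 CPM) and Dcn (0.660 to 1.34 CPM), while Col1a1 had at most 0.145 CPM, and photoreceptor markers to 20.5, 8.95 and 3.72 CPM at E18 and 3.74 to 5.09 CPM at P5. The part of these cells in the members' values was not tested.

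**Figure D5:**
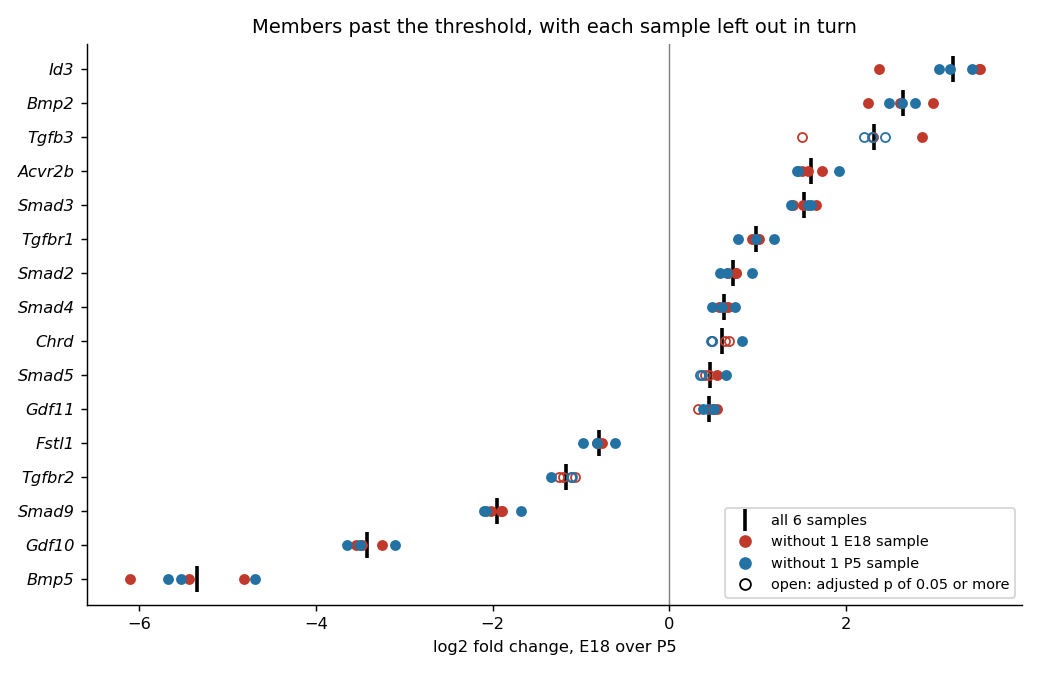
Log2 fold change (E18 over P5) of the 16 members that passed the test, with all 6 samples (black bar) and with each sample left out in turn (red, an E18 sample left out; blue, a P5 sample left out); open circles did not pass. No gene changed sign, 11 genes passed in all 6 fits, and Tgfb3, Tgfbr2 and Chrd each passed in 1 of the 6 fits.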

How the data were processed

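Total RNA of immunopanned RGCs was sequenced as 100-base paired-end reads. The labels name polyA RNA, whereas the protocol names ribosomal RNA depletion. Alignment by the authors used STAR and mm10, and they deposited raw counts per RefSeq gene from HT-seq. CASAVA 1.8.2 is named in the submitters' processing notes. Also deposited by the authors were normalized counts (a signal scaled for library size), log2 fold changes and per-sample log2 ratios, EdgeR p-values, and a rank score, none of which was used.

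Samples were grouped by the age and number in their titles. Counts were scaled by TMM, filtered with filterByExpr and tested across all genes in edgeR 4.0.16 under R 4.3.3 by its quasi-likelihood method (E18 against P5, no covariates, Benjamini-Hochberg adjustment, threshold 0.05). The same fit was run on simulated counts in which few genes changed. That run does not cover data in which many genes differ, as here. Standard errors and 95% intervals belong to the fitted model. CPM and RPKM use TMM-scaled libraries, and RPKM the length of the GENCODE M21 transcript matched to the RefSeq identifier, found for all 39 members; the counted gene models may be longer. Gene coordinates are those of GENCODE M21 on mm10. Exons of 12 members overlap those of another gene, among them Bmp5, Tgfb3, Smad5 and Chrd of the called members. Replicates of one age differed by 30.5 to 141 in chi-square per degree of freedom, so no sample was a second reading of the same library. Whether samples shared a preparation or litter cannot be told from these values.

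The members and all lists were chosen with earlier results of these data known. Named with values in every sample were, for each role, up to 4 called members in each direction and the most abundant uncalled member, and from the other lists up to 3 called genes in each direction. Other genes were named after their values were seen, and a few genes of these lists are not reported here. Alternatives were DESeq2 1.42.0, edgeR's exact test, upper-quartile and RLE scaling, 2 other filters and leaving out each sample. Promoter windows are those of RefSeq on GRCm38.p6, and for some members RefSeq and GENCODE place the start differently.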

Additional observations from a re-analysis of the deposited data

How the results depend on the processing

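No paired analysis was possible because the ages share no replicate number. Over the 6 alternatives other than leaving out samples, no tested member changed sign, and the side of the threshold changed 5 times: Smad1 passed in 4 alternatives, and Tgfbr2 did not pass in DESeq2. With a filter of at least 1 CPM in every sample of an age, 30 members were tested. Of these, 10 were higher at E18 and 3 lower, since Bmp2, Bmp5 and Tgfbr2 were no longer tested. Of the 10 members highest by RPKM, 9 were also among the 10 highest by CPM. Leaving out 1 sample at a time gave 7 to 13 members higher at E18 and 4 to 6 lower, from 7 and 4 without E18 replicate 3 (27.3% of all genes called) to 13 and 6 without P5 replicate 8 (52.5%). The sign changed in some of these fits for Id1 (-0.53 to 0.60), Tgfb2 (-0.91 to 0.18), Acvr1b (-0.078 to 0.088), Fst (-0.30 to 0.14) and Bmpr1a (-0.019 to 0.17), none of which passed with all samples. The cause was not tested.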

Other observations

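Genes of dorsal and ventral retinal identity, which BMP signaling sets up in the optic cup, were measured in the same samples. Of 10 tested, 3 were higher at E18 and 7 did not pass (30.0% called, against 43.4% of all genes). Tbx3, a dorsal T-box gene, had 10.1, 8.16 and 8.89 CPM at E18 and 3.58, 3.43 and 2.90 CPM at P5 (log2 fold change 1.45, adjusted p in edgeR 0.000474). The ventral guidance receptors Ephb2 and Ephb3 were also higher at E18, by 0.74 and 0.57 on the log2 scale, and the call of Ephb3 held in 2 of the 6 fits that left out a sample. The dorsal genes Tbx2 and Tbx5 and the ventral gene Vax2 did not pass, with log2 fold changes of -0.09, -0.16 and -0.03, so dorsal and ventral genes were found both among those higher at E18 and among those that did not pass.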
